A study of Mus musculus with 5 samples.

Results

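Saa3, Slpi, Lcn2, Serpina3n, Ptx3, Lbp and Hp, 7 acute-phase and antiprotease genes of the mouse, were followed by library and by cell population in dissociated pancreatic tumours. They were picked by name, with earlier results of these data in view, and all 7 were found among the 12579 genes shared by both deposited tables. Tumours came from 2 genotypes of mice. As background known of the study, the engineered alleles of KPPC mice include loss of both copies of Trp53 in cells of the Pdx1-Cre lineage, and KPPCN mice lack Nsdhl in that lineage as well. The labels give only these abbreviations. Nsdhl encodes a sterol dehydrogenase that works late in the making of cholesterol. As background, the study dealt with the effect of that loss on TGFβ signalling and on basal traits of the tumour cells. Pdx1-Cre acts in the pancreatic epithelium. The fibroblasts and mesothelial cells described here are thus taken to lie outside the lineage that carries the engineered alleles. That lineage was not read in the cells. Mice were 7 to 8 weeks old with advanced tumours, and dead cells and cells positive for CD45, the leukocyte surface marker, were depleted before droplet capture. Libraries of 3 KPPC tumours (named C3, D3 and H2) and 2 KPPCN tumours (1 and 2) were used. A further KPPCN tumour was not analysed here.

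The acute-phase response is the rapid change in secreted defence proteins that follows infection, injury or tumour growth. Cytokines such as interleukin 6 and interleukin 1 act through STAT3, NF-kB and C/EBP factors to raise these proteins, most of them in liver and some in stroma, mesothelium and leukocytes. Antiproteases made in the same setting restrain the proteases that neutrophils release. Saa3 is a serum amyloid A made largely outside the liver. Ptx3 is a long pentraxin that binds microbes and matrix, and Lbp carries lipopolysaccharide to CD14. Slpi inhibits neutrophil elastase and cathepsin G, and Serpina3n is a serpin that inhibits serine proteases. Lcn2 binds bacterial siderophores and so withholds iron, and Hp binds free haemoglobin.

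The promoters of Saa3, Slpi, Ptx3 and Serpina3n are shown because these members had the most separate patterns across the stroma. RefSeq (GRCm38.p6) held 5 of the 7 members, without Lbp and Hp. The window is the 250 bases before the transcription start, read 5′ to 3′ on the gene's own strand, and capitals mark matches on either strand to the C/EBP motif TTGCNNAA or to the NF-kB motif (GGGA, any 4 bases, then CC). Saa3 lies at chr7:46715677-46715926 on the minus strand, Slpi at chr2:164356508-164356757 on the minus strand, Ptx3 at chr3:66219637-66219886 on the plus strand and Serpina3n at chr12:104406458-104406707 on the plus strand.
Saa3: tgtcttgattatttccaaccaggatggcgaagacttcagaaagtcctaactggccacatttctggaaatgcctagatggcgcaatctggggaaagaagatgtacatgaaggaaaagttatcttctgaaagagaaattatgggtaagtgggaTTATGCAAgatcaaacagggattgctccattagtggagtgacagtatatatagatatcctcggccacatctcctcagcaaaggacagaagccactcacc
Slpi: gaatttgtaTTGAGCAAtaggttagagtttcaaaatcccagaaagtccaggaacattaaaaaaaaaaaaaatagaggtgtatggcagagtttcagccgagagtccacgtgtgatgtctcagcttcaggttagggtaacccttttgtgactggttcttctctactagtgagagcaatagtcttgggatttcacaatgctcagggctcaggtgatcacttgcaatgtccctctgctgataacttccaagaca
Ptx3: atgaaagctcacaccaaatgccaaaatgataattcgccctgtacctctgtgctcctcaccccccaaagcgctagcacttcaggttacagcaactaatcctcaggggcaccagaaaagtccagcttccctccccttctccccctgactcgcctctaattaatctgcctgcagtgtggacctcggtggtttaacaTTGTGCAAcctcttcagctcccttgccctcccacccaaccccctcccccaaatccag
Serpina3n: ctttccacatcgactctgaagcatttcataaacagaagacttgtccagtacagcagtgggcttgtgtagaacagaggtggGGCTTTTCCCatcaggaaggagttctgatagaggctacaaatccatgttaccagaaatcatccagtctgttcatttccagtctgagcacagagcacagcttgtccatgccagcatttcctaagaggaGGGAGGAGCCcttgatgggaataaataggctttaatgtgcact
The C/EBP letters began 99 bases before the start of Saa3, 241 before Slpi, 57 before Ptx3 and 216 before Lcn2 (chr2:32387740-32387989, minus strand). Serpina3n held none of them and carried the NF-kB letters at 170 and 43 bases before its start. The STAT letters TTCNNNGAA were in none of these 5 windows. Among all 32851 RefSeq promoters of this length, 9.56% held the C/EBP letters, 17.6% the NF-kB letters and 7.02% the STAT letters. These are matches of letters and were not read as sites.

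Genes were placed on GRCm38 with GENCODE vM21. Saa3 (ENSMUSG00000040026) spans chr7:46711998-46715700 on the minus strand, Slpi (ENSMUSG00000017002) chr2:164354070-164389095 on the minus strand, and Lcn2 (ENSMUSG00000026822) chr2:32384633-32388252 on the minus strand. Serpina3n (ENSMUSG00000021091) spans chr12:104406729-104414329 on the plus strand, Ptx3 (ENSMUSG00000027832) chr3:66219910-66225805 on the plus strand, Lbp (ENSMUSG00000016024) chr2:158306493-158332852 on the plus strand and Hp (ENSMUSG00000031722) chr8:109575128-109579172 on the minus strand. Saa3 and Serpina3n belong to gene families with near copies. Of the 403 read-length windows of 98 bases in the last 500 bases of the Saa3 transcript, 1 was also found in another gene (Malat1), and for the other 6 members none was.

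The 5 libraries held 3663, 3196 and 2464 cells in KPPC C3, D3 and H2, and 5147 and 1985 cells in KPPCN 1 and 2. Median depth was 17125 to 18726 unique molecular identifiers (UMIs) per cell in KPPC, 2143 in KPPCN 1 and 21593 in KPPCN 2. KPPCN 1 therefore stands apart in depth. It also held 1070 B/plasma-like cells and 1299 T/NK-like cells in spite of the CD45 depletion. Levels are given as CPM, the UMIs of a gene scaled by all UMIs of the shared genes, after both were summed over the cells of 1 library and population. Intervals are exact 95% Poisson intervals and cover counting error only. Tables were deposited separately for the 2 genotypes, so genotype and table cannot be told apart. In the table of KPPC, a total of 275, 418 and 1036 genes are listed at 0 in every cell of C3, D3 and H2, whereas each other gene is found in at least 61, 37 and 47 cells there. A 0 over a whole KPPC library is therefore not read as absence of a gene's RNA. None of the 7 members is among these genes. Markers of liver were near absent: Alb, Apoc3, Serpina1c and Fgb were at 0 in both KPPCN libraries, and the 2 hepatocyte markers of 7 that both tables hold (1 of them, Apoa2, listed at 0 in all of KPPC H2) summed to at most 2.34 CPM in mesothelial-like and 1.44 CPM in fibroblast-like cells.

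Cells were clustered with the 7 members left out and named by markers. Mesothelial-like cells (clusters 13 and 18, led by genes such as Upk3b and Lrrn4) numbered 228, 341 and 252 in KPPC C3, D3 and H2 and 57 and 31 in KPPCN 1 and 2. Fibroblast-like cells (clusters 0, 2, 7, 11 and 19, rich in Col1a1, Col3a1 and Dcn) numbered 1513, 361, 715, 1590 and 275 in the same order. Cluster 3, led by Cxcl13 and Calca, did not meet the rule for a name. Its mesothelial markers summed to 882 CPM, against 3758 CPM in cluster 13 and 319 CPM in fibroblast cluster 0, and 99.9% of its cells joined a mesothelial-like cluster when fewer clusters were made. It held 251, 663, 247, 26 and 27 cells. Cluster 14, with Enpp2 and Cxcl13 high, held 446 cells and came from KPPCN 1 alone, so cluster and library cannot be told apart. Cluster 9 (Ndufa4l2, Serpinb2, Cryab) had 74, 393, 66, 46 and 74 cells. Cluster 25 was named neutrophil-like from its markers in KPPC C3, where S100a8 and S100a9 stood at 58640 and 63040 CPM, and in the KPPCN libraries. Both are listed at 0 in every cell of D3 and H2, and they are the only neutrophil markers that the KPPC table holds, so no marker bears the name out in those 2 libraries. Of its other leading genes, G0s2, Srgn and Il1r2 stood at 6414, 13230 and 2942 CPM in D3 and at 14270, 11600 and 4696 CPM in H2.

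Members fell into 3 patterns across these populations. Saa3 and Slpi were highest in mesothelial-like cells and their unnamed neighbours. Ptx3, Lbp and Serpina3n were highest in fibroblast kinds, with Lbp and Serpina3n also high in endothelial cluster 20. Hp was high in fibroblast kinds and in neutrophil-like cells. Lcn2 was spread over neutrophil-like, epithelial-like, acinar-like and some endothelial-like cells and the unnamed clusters 14 and 26. The members were chosen with such values in view, so levels across populations are a description and carry no test.

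**Figure D1:**
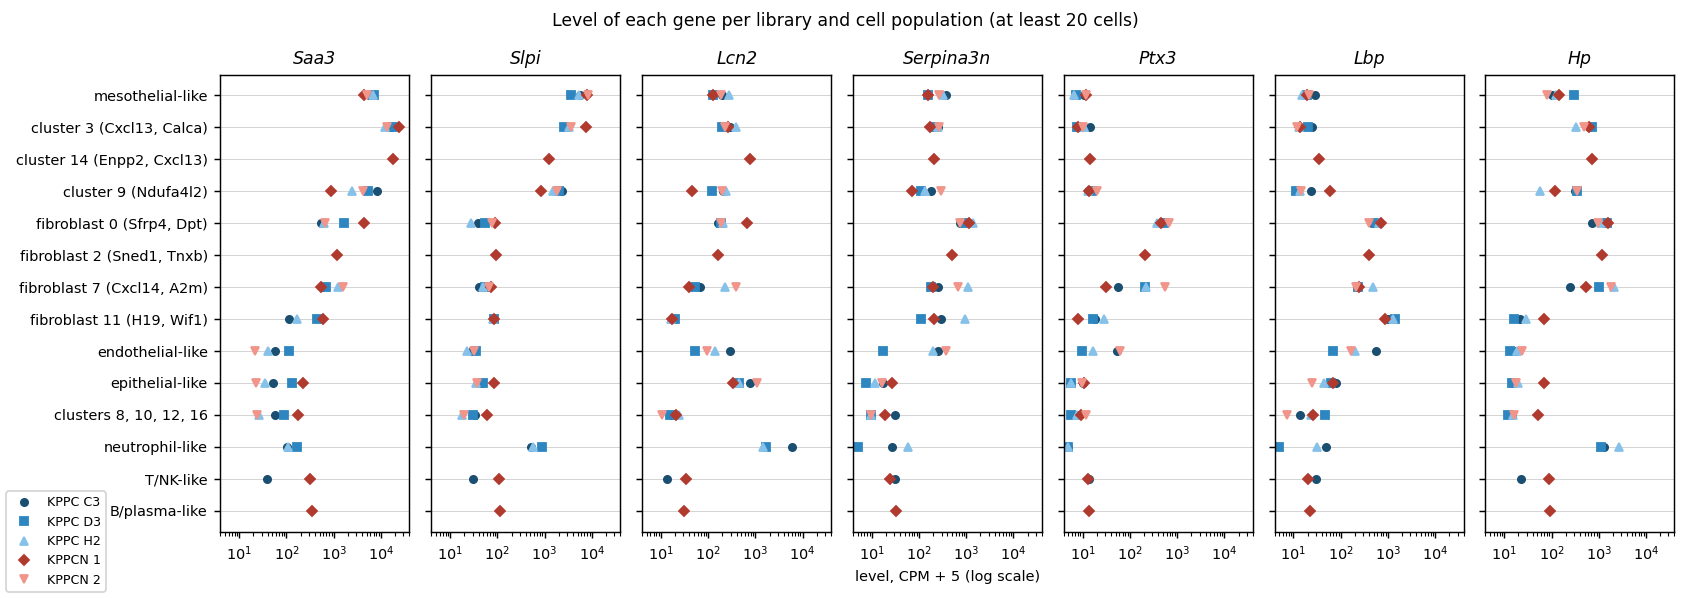
Level of each of the 7 genes (CPM plus 5, log axis) in each cell population (rows); every point is 1 library with at least 20 cells of that population, blue for KPPC and red for KPPCN. Saa3 reaches 12410 CPM or more only in clusters 3 and 14, Slpi is highest in the mesothelial-like rows, and Ptx3 stands above 200 CPM only in fibroblast rows.

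Saa3 reached its highest levels in cluster 3, with 17260, 17910 and 12410 CPM in the KPPC libraries C3, D3 and H2 and 24330 and 13440 CPM in KPPCN 1 and 2. Cluster 14 of KPPCN 1 stood at 18340 CPM (18170 to 18510), within the range of cluster 3. All other clusters lay below, with no overlap. In mesothelial-like cells Saa3 was at 5568, 7245 and 6781 CPM for the KPPC libraries and 4293 and 5097 CPM for the KPPCN pair. Both KPPCN libraries thus lay below all 3 KPPC libraries, but the share of all genes that separate the groups in this way was not counted. Within that class, cluster 18 (9403, 7572, 6842 and 5798 CPM in KPPC C3, D3, H2 and KPPCN 1) was above cluster 13 (4063, 6824, 6723 and 2898 CPM), by little in D3 and H2. In KPPCN 2, with 13 and 18 cells of clusters 18 and 13, the order was the other way (1280 against 9011 CPM). Cluster 9 ranged widely, with 8310, 5247 and 2485 CPM in the KPPC libraries C3, D3 and H2 and 869 and 4074 CPM in KPPCN 1 and 2. The unnamed cluster 21 (Myl7, Acta2, Tagln), with a median of only 1680 UMIs per cell, held 3463, 5622 and 8998 CPM in the KPPC libraries C3, D3 and H2 and 3765 CPM in KPPCN 2. Fibroblast-like cells held 459, 956 and 930 CPM in KPPC and 1129 and 1098 CPM in KPPCN, and epithelial-like cells 17.9 to 219 CPM. Among the fibroblasts, cluster 0 held 521, 1662 and 610 CPM in the KPPC libraries and 4308 and 658 CPM in the KPPCN pair, so that KPPCN 1 was high there.

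Saa3 UMIs were also found in cells not known to make it. RNA set free from other cells can enter a droplet, but such free RNA was not measured here. Lymphocytes are not known to make Saa3, yet in KPPCN 1 it stood at 303 CPM (282 to 326) in T/NK-like cells and at 345 CPM (314 to 378) in B/plasma-like cells. Of these cells, 44.0 and 33.7% had a Saa3 UMI, and 26.6 and 29.8% after each cell was thinned to 1000 UMIs. The thinned share in fibroblast-like cells of the same library was 34.5% (70.3% before thinning). In KPPC C3 the T/NK-like cells stood at 34.4 CPM (9.36 to 88.0). The level of epithelial-like cells in KPPCN 1, 219 CPM, was thus below that of its lymphocytes. Those lymphocytes were shallower, with medians of 1776 and 1156.5 UMIs against 7430 and 7586.5 UMIs in epithelial clusters 5 and 6. Whether the epithelial level was background was not tested.

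Slpi was highest in mesothelial-like cells. The KPPC libraries C3, D3 and H2 held 5693, 3667 and 5304 CPM there, and the KPPCN libraries 1 and 2 held 8094 and 8360 CPM. Cluster 13 had more Slpi than cluster 18 in the 4 libraries with at least 20 cells of both (6745 against 3011, 5453 against 2282, 7468 against 3003 and 8497 against 7658 CPM). In the same 4 libraries Saa3 was higher in cluster 18. KPPCN 2 had 12500 against 4320 CPM of Slpi in its few cells. Cluster 3 followed at 3102, 2521, 3211, 7493 and 3611 CPM, overlapping cluster 18. Cluster 9 lay between 833 and 2361 CPM, and cluster 14 at 1208 CPM (1164 to 1252). Cluster 24, led by Igkc, Igha, Prtn3 and globin genes, came almost wholly from KPPCN 1 (114 of 124 cells), so cluster and library cannot be told apart. Igkc, Igha and Prtn3 are among the genes listed at 0 in whole KPPC libraries. Cluster 24 held 4016 CPM of Slpi (3888 to 4146) but 250 CPM of Saa3, which is below the lymphocytes of that library. A Slpi UMI was found in 51.8% of its cells, and in 25.2% after thinning. The neutrophil-like cluster 25, of which only the KPPC libraries held at least 20 cells, stood at 501, 875 and 551 CPM.

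Fibroblast-like cells held only 42.6, 56.6 and 42.4 CPM of Slpi in KPPC and 81.1 and 63.3 CPM in KPPCN. The lymphocytes of KPPCN 1 held 101 and 108 CPM and the T/NK-like cells of KPPC C3 25.8 CPM (5.31 to 75.3). By CPM, the fibroblast level was thus not set apart from that of lymphocytes in those libraries. Lymphocytes were shallower, with a median of 1776 UMIs in T/NK-like cells of KPPCN 1 and 2610 in those of KPPC C3. Whether fibroblasts carried Slpi above free RNA was not tested. Slpi is also known from epithelia, yet epithelial-like cells here stood at 30.4 to 80.8 CPM, about the fibroblast level.

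Ptx3 was highest in fibroblasts. Fibroblast-like cells held 316, 257 and 219 CPM in the KPPC libraries C3, D3 and H2 and 173 and 572 CPM in KPPCN 1 and 2. KPPCN 2 was thus highest and KPPCN 1 lowest, with KPPC between. Mesothelial-like cells held 5.78, 2.15 and 1.43 CPM in KPPC and 6.95 and 6.86 CPM in KPPCN, the last pair from 7 UMIs each. T/NK-like cells of KPPCN 1 stood at a similar 7.87 CPM (4.81 to 12.2). Their median depth was 1776 UMIs, against 11320 and 20642 UMIs in mesothelial-like clusters 13 and 18 of that library. Whether the mesothelial level was free RNA was not tested. In the fibroblast kind of cluster 0 (Sfrp4, Dpt) Ptx3 was at 455, 530, 371, 446 and 663 CPM, against 13.5, 11.2, 23.2 and 2.99 CPM in cluster 11 (H19, Wif1). Cluster 7 (Cxcl14, A2m) ranged from 26.8 CPM in KPPCN 1 to 564 CPM in KPPCN 2. Endothelial cluster 20 held 81.2 and 44.0 CPM in KPPC C3 and H2, above fibroblast cluster 11 of the same libraries.

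Lbp had the opposite order among fibroblast kinds. Cluster 11 held 995, 1428 and 1290 CPM in the KPPC libraries C3, D3 and H2 and 874 CPM in KPPCN 1, above cluster 0 in 4 of 4 libraries (458, 543, 641 and 711 CPM). Cluster 7 held 211 to 471 CPM. Over all fibroblast-like cells the KPPC libraries had Lbp levels of 504, 639 and 615 CPM and the KPPCN pair of 376 and 306 CPM. Endothelial cluster 20, which held over 20 cells in 2 KPPC libraries, had 931 and 761 CPM in C3 and H2, against 43.2 and 11.3 CPM in endothelial cluster 15 of the same libraries. Mesothelial-like cells held 9.86 to 23.9 CPM, which in KPPCN 1 (13.9 CPM, 7.60 to 23.3) was at the level of its T/NK-like cells (15.7 CPM).

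Serpina3n was broad within the stroma. Cluster 0 led with 716, 927 and 1362 CPM in the KPPC libraries C3, D3 and H2 and 1139 and 746 CPM in KPPCN 1 and 2. Fibroblast-like cells as a whole held 577, 402, 1133, 456 and 679 CPM, so that KPPC H2 stood highest and the groups overlapped. Mesothelial-like cells held 377, 152, 321, 147 and 256 CPM, and cluster 3 held 243, 207, 243, 164 and 262 CPM. Endothelial cluster 20 stood at 419 and 766 CPM, against 14.4 and 9.28 CPM in cluster 15. Epithelial-like cells held 2.63 to 21.9 CPM, and T/NK-like cells of KPPCN 1 held 18.9 CPM.

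Hp was high in fibroblasts and in neutrophil-like cells. Fibroblast-like cells held 531, 973 and 1528 CPM in the KPPC libraries C3, D3 and H2 and 953 and 1257 CPM in KPPCN 1 and 2, with overlapping groups. Cluster 0 (703 to 1573 CPM) and cluster 7 (241 to 2088 CPM) overlapped, whereas cluster 11 held only 11.2 to 62.8 CPM. Cluster 3 stood at 620, 727, 317, 614 and 487 CPM, above the mesothelial-like cells (99.6, 294, 121, 142 and 75.5 CPM) in 5 of 5 libraries. The neutrophil-like cluster 25, a name that no marker bears out in D3 and H2, held 1264, 1113 and 2624 CPM in the KPPC libraries C3, D3 and H2. Its lowest value, in D3, lay inside the range of cluster 0. The T/NK-like cells of KPPCN 1 held 81.8 CPM (71.1 to 93.8).

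Lcn2, known as a product of neutrophil granules and of stressed epithelia, was highest in the neutrophil-like cluster 25, at 6004 CPM in KPPC C3. The cells of that cluster in D3 and H2, where its markers are listed at 0, held 1670 and 1443 CPM. A minority of these cells carried it: 30.6, 14.3 and 31.0% had an Lcn2 UMI, at median depths of 1838, 1607 and 1248 UMIs, whereas 58.3, 47.6 and 72.4% had an Hp UMI. Of the T/NK-like cells of KPPC C3, at a median of 2610 UMIs, 2.38% had an Lcn2 UMI. Acinar-like cells followed at 746 and 955 CPM in C3 and H2. Epithelial-like cells had 749, 449 and 455 CPM in KPPC and 337 and 1060 CPM in KPPCN, so the KPPCN pair enclosed the KPPC values. Cluster 14 held 767 CPM (732 to 802) and endothelial cluster 20 476 and 540 CPM. The unnamed cluster 26, whose markers are those of macrophages, held 818 CPM in KPPCN 1, the only library with at least 20 of its cells.

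Lcn2 in fibroblast-like cells was 118, 81.8 and 186 CPM in KPPC and 149 and 256 CPM in KPPCN. In mesothelial-like cells it was 192, 120 and 268 CPM in KPPC and 124 and 179 CPM in KPPCN. The neutrophil markers S100a8 and S100a9, 2 of 6 in both tables, summed in fibroblast-like cells to 7.71 CPM in KPPC C3 and to 43.4 and 4.68 CPM in KPPCN 1 and 2. In D3 and H2 both are listed at 0 in every cell and cannot be read. The part of neutrophil RNA in these Lcn2 levels was not tested.

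Set side by side within each library, mesothelial-like cells exceeded fibroblast-like cells in Saa3 by 12.1, 7.58 and 7.30 times in KPPC C3, D3 and H2 and by 3.80 and 4.64 times in KPPCN 1 and 2. For Slpi the ratio was 134, 64.8 and 125 in KPPC and 99.8 and 132 in KPPCN, with a low denominator (at most 81.1 CPM). Serpina3n, Ptx3, Lbp and Hp were lower in mesothelial-like cells in 5 of 5 libraries, with ratios of 0.28 to 0.65, 0.0065 to 0.040, 0.016 to 0.054 and 0.060 to 0.30. Lcn2 was higher in mesothelial-like cells in the 3 KPPC libraries (1.63, 1.46 and 1.44) and lower in both KPPCN libraries (0.83 and 0.70).

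**Figure D2:**
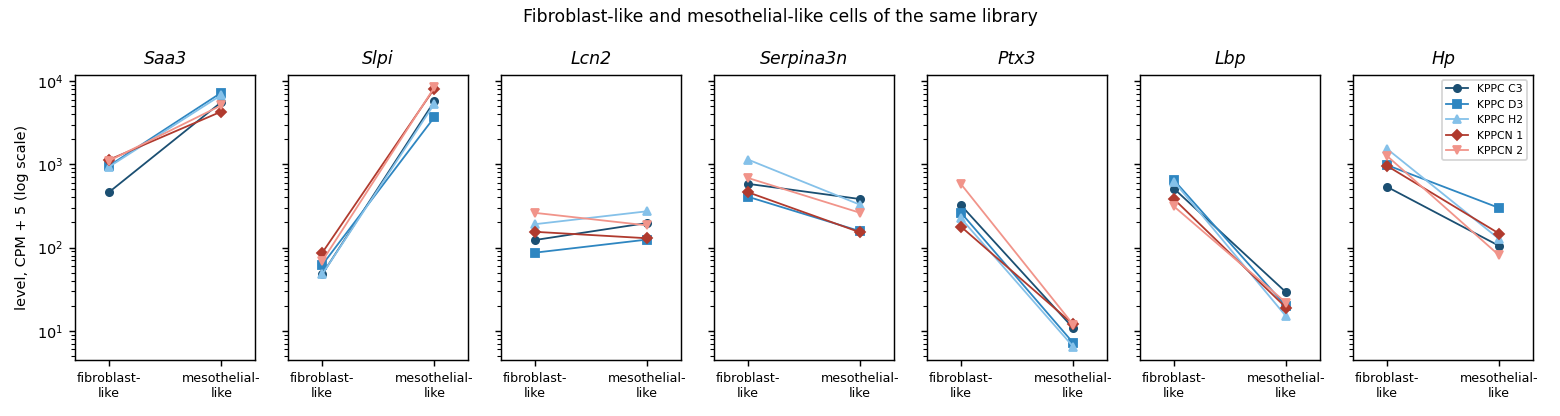
Level of each gene (CPM plus 5, log axis) in the fibroblast-like and mesothelial-like cells of the same library; every line is 1 library, blue for KPPC and red for KPPCN. All 5 lines climb for Saa3 and Slpi and fall for Serpina3n, Ptx3, Lbp and Hp, while for Lcn2 the KPPC lines climb and the KPPCN lines fall.

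The cells that supplied a gene's UMIs also differed between libraries. Such shares mix the number of cells of a population with their level of the gene and their depth. Cluster 3 held 56.9, 62.1 and 51.0% of all Saa3 UMIs in KPPC C3, D3 and H2 and 12.03 and 27.8% in KPPCN 1 and 2. Cluster 14 held 62.6% of those of KPPCN 1. Mesothelial-like cells held 61.1, 40.4, 63.3, 41.1 and 54.9% of Slpi while being 6.22, 10.7, 10.2, 1.11 and 1.56% of cells. Cluster 24 held 18.9% of the Slpi UMIs of KPPCN 1. Fibroblast-like cells held 87.05 to 96.6% of Ptx3 and 62.8 to 89.5% of Lbp. For Hp they held 74.7, 84.9, 73.3 and 81.9% in C3, H2, KPPCN 1 and KPPCN 2 but 23.6% in D3, where fibroblasts were fewest among KPPC. Serpina3n showed the same split, with 27.9% in D3 and 73.6 to 80.8% elsewhere. Epithelial-like cells held 54.3, 64.0 and 43.5% of Lcn2 in KPPC and 5.78 and 18.0% in KPPCN, where they were 1.15 and 1.46% of cells.

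**Figure D3:**
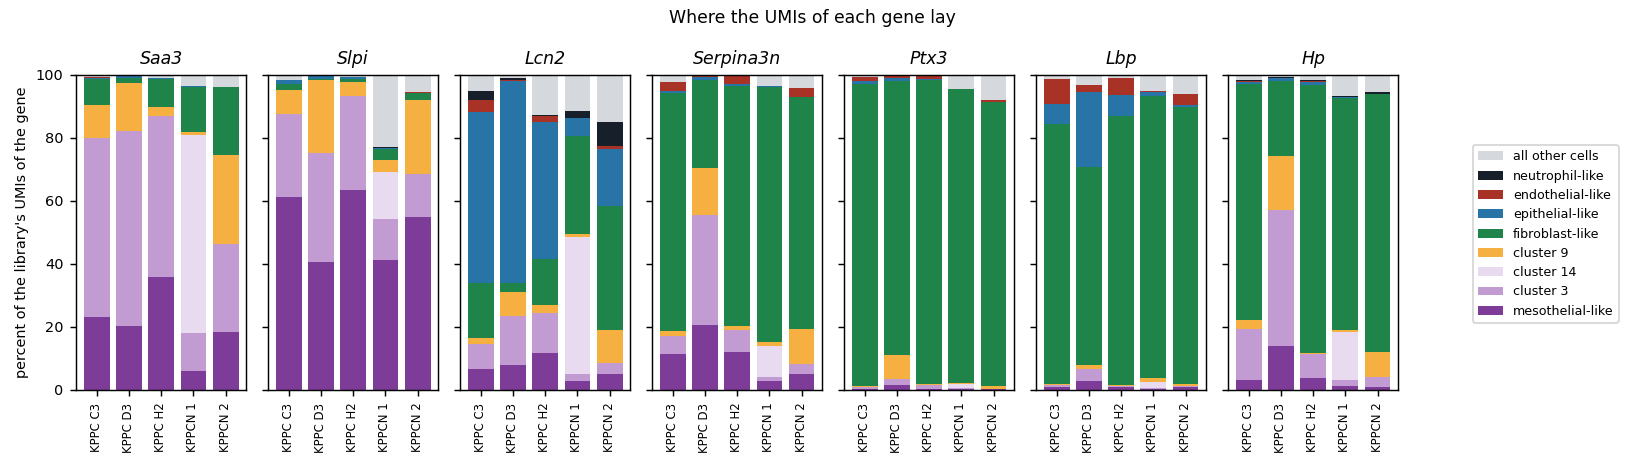
Percent of all UMIs of each gene in a library that lay in each cell population (stacked bars, 1 bar per library). Mesothelial-like cells with clusters 3, 14 and 9 fill most of the Saa3 bars, fibroblast-like cells fill the Ptx3 and Lbp bars, and epithelial-like cells hold 43.5 to 64.0% of Lcn2 in KPPC alone.

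Within a population the genes were unevenly spread over cells. After thinning to 1000 UMIs, 82.5, 79.9 and 69.6% of cluster 3 cells in KPPC and 69.2 and 74.1% in KPPCN had 5 or more Saa3 UMIs. In mesothelial-like cells 51.5, 28.7, 38.9, 45.6 and 38.7% had 0 Saa3 UMIs, and the 10% of cells with most Saa3 UMIs held 63.0, 41.01, 58.4, 54.5 and 70.0% of them. Slpi was less concentrated there, with 36.6 to 53.3% in that top 10%. In fibroblast-like cells 65.5 to 85.2% had 0 Saa3 UMIs and the top 10% of cells held 74.4 to 90.7%. Serpina3n and Lbp were flatter in fibroblast-like cells, where the top 10% of cells held 39.4 to 66.4% and 46.0 to 59.8%.

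**Figure D4:**
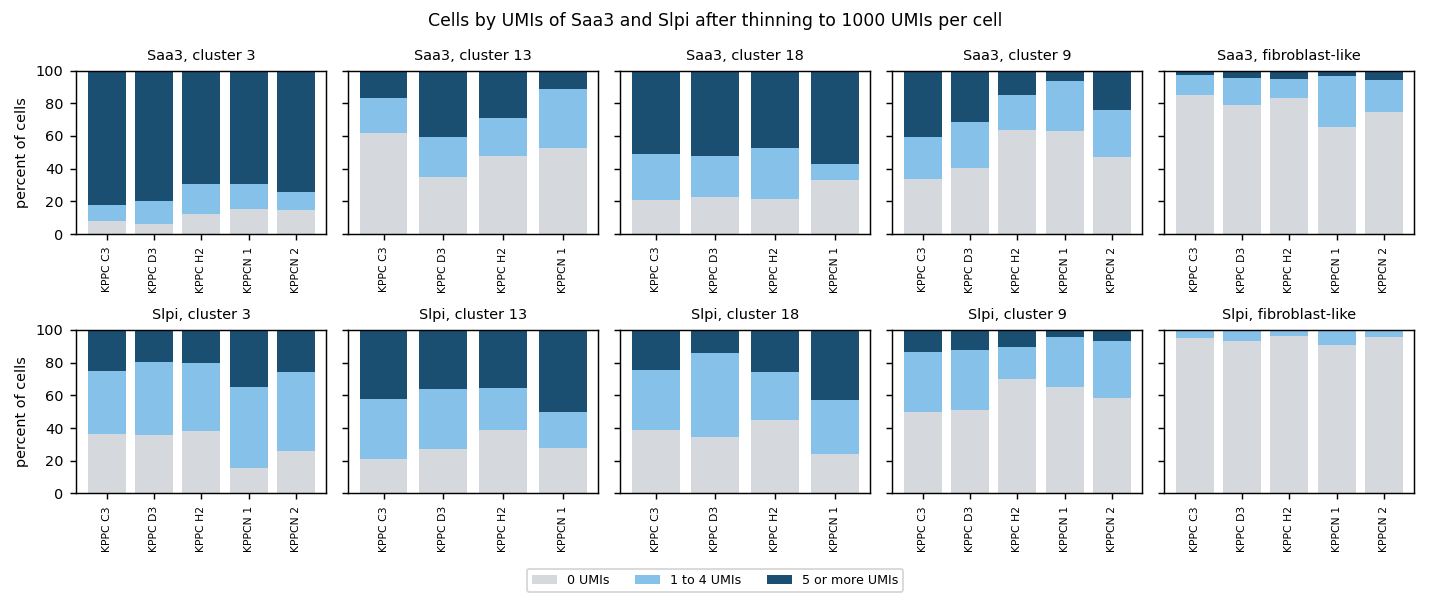
Percent of cells with 0, 1 to 4 or 5 and more UMIs of Saa3 (upper row) and Slpi (lower row) after thinning each cell to 1000 UMIs, per library and population (stacked bars; populations with at least 20 cells). Cluster 3 has 69.2 to 82.5% of cells in the top Saa3 class, whereas fibroblast-like cells have 2.92 to 5.82%.

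Pairs of members were also read in the same thinned cells. In fibroblast-like cells, Saa3 and Hp were found together in 6.51, 9.80 and 10.8% of cells in KPPC and 14.2 and 14.2% in KPPCN. Independent detection would give 3.13, 4.94 and 5.91% in KPPC and 12.2 and 9.90% in KPPCN, so joint detection was above that product in 5 of 5 libraries. Serpina3n and Hp were found together in 12.8, 10.6, 23.9, 13.6 and 19.6% of cells, against 7.74, 5.27, 18.96, 10.6 and 15.1%. In mesothelial-like cells Saa3 and Slpi were found together in 36.1, 54.8, 41.7, 43.9 and 54.8% of cells, against 36.1, 49.3, 36.1, 40.1 and 45.5% from the product. Joint detection was thus at the product in KPPC C3 and above it in the other 4 libraries. These are descriptions: the fibroblast class mixes kinds, and cluster 11 is low in Hp and Saa3.

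Across 84 sums of a library and a cluster (30 clusters, at least 20 cells each), Saa3 and Slpi were most alike among the members (Pearson r = 0.83). Ptx3 and Serpina3n followed at 0.69, and Slpi and Lbp stood at -0.22. The genes most like Saa3 were Ptgis, Trem2, Dmkn, Barx1 and Gjb5 (r = 0.94 to 0.90). Slpi was most like Lgals7, Trem2, Upk3b, Nkain4 and Ear1 (0.91 to 0.83), of which Upk3b and Nkain4 are mesothelial markers. Serpina3n was most like Igf1, Pdpn, Prelp, Adamtsl1 and C2 (0.92 to 0.89), Ptx3 most like Fgf7, Dpt, Nov, Svep1 and Dpep1 (0.84 to 0.80), and Lbp most like Kng2, Ms4a4d, Fxyd6, Dpep1 and Dio3 (0.86 to 0.79). Hp was most like Adora2b, Emilin2, Gm2a, Pygl and Nr4a3 (0.82 to 0.75). Lcn2 had no close match, Cd14 coming first at 0.70. Sums of 1 library share its depth and free RNA, and the values carry no p.

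Partners and inducers of the members were present in the same stroma. Il6, the chief inducing cytokine, averaged 31.0 CPM over the 5 libraries in mesothelial-like cells and 128 CPM in fibroblast-like cells. Its relative Il11 averaged 13.5 and 32.0 CPM, and the receptor genes Osmr and Il11ra1 96.1 and 140 CPM and 130 and 456 CPM. Nfkb1, a subunit of NF-kB, averaged 303 CPM in mesothelial-like cells, 434 CPM in cluster 3 and 167 CPM in fibroblast-like cells. Cebpb averaged 215, 303 and 221 CPM in that order. Tnfaip6, whose protein binds PTX3 in matrix, averaged 399 CPM in fibroblast-like and 144 CPM in mesothelial-like cells. Cd14, the receptor to which Lbp delivers lipopolysaccharide, averaged 42.6 CPM in mesothelial-like cells, 74.8 CPM in cluster 3 and 2.86 CPM in fibroblast-like cells. Lrp2, an uptake receptor for Lcn2, averaged 38.0 CPM in mesothelial-like and 0.28 CPM in fibroblast-like cells. The complement protein C3, another acute-phase protein, averaged 6314 and 3721 CPM in mesothelial-like and fibroblast-like cells.

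Whether loss of Nsdhl in the epithelial lineage went with a change of these genes was tested per population with limma on log2(CPM + 5), over 3 KPPC and 2 KPPCN libraries. The labels describe parallel processing within a replicate, which could not be entered because the KPPC codes match no replicate number. The p-values measure the spread between these 5 libraries. In mesothelial-like cells 0 of the 7 members passed the adjusted threshold of 0.05, and of all 11508 genes tested 0 did (0%), with 1012 at an unadjusted p under 0.05. Slpi was higher in both KPPCN libraries, with a mean of 8227 ± 188 CPM (SD, n = 2) against 4888 ± 1075 CPM (n = 3). On the log2 scale it differed by 0.78 (SE 0.23, limma, adjusted p = 0.519). Within cluster 13 the 1 KPPCN library with enough cells stood at 8497 CPM against 5453 to 7468 CPM in KPPC. Saa3 was lower in both KPPCN libraries, at 4695 ± 569 CPM against 6531 ± 866 CPM, with a log2 difference of -0.47 and an SE of 0.20 (limma, adjusted p = 0.568). The remaining 5 members had adjusted p of 0.628 to 0.998, and the estimate for Lbp lay at 0.00.

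In fibroblast-like cells 0 of the 7 members and 0 of 11747 genes passed (0%), with 865 genes at an unadjusted p under 0.05. Lbp averaged 341 CPM in KPPCN and 586 CPM in KPPC, a log2 difference of -0.77 with an SE of 0.19 (limma, adjusted p = 0.658). The mix of kinds differed between libraries: cluster 11, the kind highest in Lbp, held 311, 111 and 145 cells in KPPC and 46 and 7 in KPPCN, and cluster 2 held 1284 of the 1590 fibroblast-like cells of KPPCN 1. Within cluster 0, Lbp levels were 458, 543 and 641 CPM for KPPC and 711 and 396 CPM for KPPCN, so there the groups overlapped. Within cluster 11, KPPCN 1 (874 CPM) lay below the 3 KPPC libraries (995, 1428 and 1290 CPM), and KPPCN 2 stood at 522 CPM (409 to 657) from 7 cells. Saa3 and Lcn2 had log2 differences of 0.58 and 0.65 with SEs of 0.33 and 0.37 (limma, adjusted p = 0.659 for both). Slpi stood at 0.58 with an SE of 0.19 (limma, adjusted p = 0.658), at low levels (means of 47.2 CPM in KPPC and 72.2 CPM in KPPCN). Serpina3n, Ptx3 and Hp had adjusted p of 0.880 to 0.905.

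Epithelial-like cells are taken to belong to the lineage that carries the engineered alleles, which was not read in the cells. In them 0 of the 7 members and 0 of 11986 genes passed (0%), with 1214 genes at an unadjusted p under 0.05. KPPCN 1 and 2 held 59 and 29 such cells. Clusters 8, 10, 12 and 16 are not among them, and whether those clusters carry the alleles was not read. Hp had a log2 difference of 1.23 with an SE of 0.47 (limma, adjusted p = 0.489). Its 3 KPPC levels were 9.51, 9.57 and 14.1 CPM, beside 65.7 CPM in KPPCN 1 and 13.02 CPM in KPPCN 2. KPPCN 1 alone was high, below the 81.8 CPM of its shallower T/NK-like cells. Per cell the order was the other way, with 0.745 and 1.08 Hp UMIs in epithelial clusters 5 and 6 and 0.160 in T/NK-like cells. The part of free RNA in this level was not tested. Lcn2, the member best expressed in the epithelium, had a difference of 0.15 with an SE of 0.46 (limma, adjusted p = 0.927).

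Over all cells 0 of the 7 members passed, and 3 of 12576 genes did (0.0239%, all lower in KPPCN: Kcne3, Muc6 and Tff2), with 2009 at an unadjusted p under 0.05. Without the genes listed at 0 in a whole KPPC library, 20 of 11413 genes passed, again with 0 members. In such sums fewer cells of a type and less RNA per cell cannot be told apart. Saa3 levels were 2011, 5331 and 2667 CPM for the KPPC libraries C3, D3 and H2 and 2821 and 547 CPM for the KPPCN pair, with overlapping groups and a log2 difference of -1.29 (SE 0.78, limma, adjusted p = 0.463). Slpi levels were 777, 1342 and 1177 CPM for KPPC and 793 and 300 CPM for KPPCN (difference -1.12, SE 0.47, limma, adjusted p = 0.324). Lcn2 had 245, 229 and 322 CPM against 170 and 69.9 CPM (difference -1.22, SE 0.40, limma, adjusted p = 0.249). When KPPCN 1 was left out, Saa3, Slpi and Lcn2 had differences of -2.47, -1.82 and -1.84. These rest on a single KPPCN library in which clusters 8, 10, 12 and 16 made up 72.4% of cells. Those clusters held 18.5 CPM of Saa3 in that library.

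**Figure D5:**
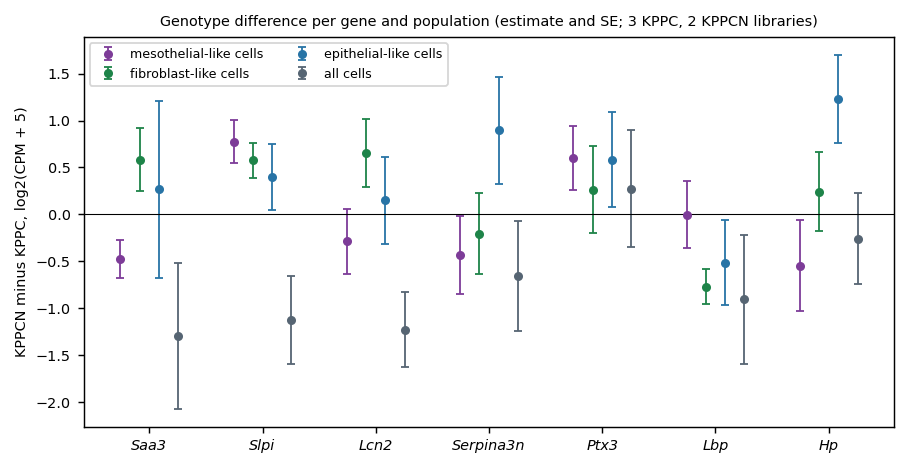
Difference between genotypes, KPPCN minus KPPC, in log2(CPM + 5) for each gene in 4 populations (points are limma estimates, bars are 1 SE either way, 3 KPPC and 2 KPPCN libraries). Saa3 lies at -0.47 in mesothelial-like and 0.58 in fibroblast-like cells, Slpi is above 0 in each named class and at -1.12 over all cells, and no estimate passed the adjusted threshold.

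The step from fibroblast-like to mesothelial-like cells was also compared between genotypes, as the log2 gap within each library. For Saa3 the gap was 3.59, 2.92 and 2.86 in KPPC and 1.92 and 2.21 in KPPCN, without overlap. The gap changed by -1.05 with an SE of 0.26 (limma, adjusted p = 0.361), and by -0.35 when fewer clusters were made. For Lcn2 it was 0.68, 0.52 and 0.52 in KPPC and -0.26 and -0.50 in KPPCN, a change of -0.95 with an SE of 0.17 (limma, adjusted p = 0.284). None of 11257 genes passed this test (1357 at an unadjusted p under 0.05). The other 5 members had adjusted p of 0.454 to 0.818.

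Pathway genes were counted list by list in the same fits, and none was called in mesothelial-like, fibroblast-like or epithelial-like cells. Over all genes, 48.7% and 55.7% of estimates lay above 0 in mesothelial-like and fibroblast-like cells. No list was tested as a set. In mesothelial-like cells the estimates of all 6 inducing ligands tested, of 8 listed, lay below 0, with a median of -0.54 against -0.01 over all genes. Il6 averaged 41.2 CPM in KPPC and 15.8 CPM in KPPCN there (difference -1.21, SE 0.24, limma, adjusted p = 0.508). Of 10 genes of signal transduction and feedback, 8 lay below 0 and 2 above (median -0.29). Socs3, the feedback inhibitor of this signalling, stood at 178 and 88.2 CPM (difference -0.93, SE 0.29, limma, adjusted p = 0.519). In fibroblast-like cells the ligands divided 3 and 3 (median -0.07 against 0.03 over all genes). The other antiproteases there had 14 of 16 estimates below 0, with a median of -0.23, among them Timp3 at 1869 and 721 CPM (difference -1.34, SE 0.27, limma, adjusted p = 0.523).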

How the data were processed

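Single-cell RNA was counted with the 10x Genomics 3′ V3 chemistry, per the labels' protocols (single-end reads of 98 bases). Build GRCm38 and the tools Seurat 3.0.2, R 3.5.1 and Cell Ranger 2.1.0 are listed in the submitters' processing notes. Values as deposited are natural logs: the exponential minus 1 summed to 10000 in each cell. UMIs were recovered from the smallest step per cell, and 100% of values came out whole within 0.01 UMI. The shared genes held 99.3% of KPPCN UMIs. Each of the 12579 genes in the KPPC table is found in at least 37 cells, whereas that of KPPCN lists 31053 genes.

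Cells with under 500 genes (733 in KPPCN 1, 68 in KPPCN 2) and high-scoring simulated-doublet neighbours (0.8% per 1000 cells; 114, 86, 51, 231 and 33 cells) were left out, leaving 16455. Of the barcodes, 26 occurred in more than 1 library. Leiden clustering (leidenalg 0.10.2, scikit-learn 1.9.0, Python 3.11.15) used 2000 variable genes, 30 components, 20 neighbours and resolution 1, without integration, and gave 30 clusters. A class needed a mean log2 marker ratio of 1 and 3 markers raised 2-fold. This rule was set after the clusters were seen. An earlier version left epithelial cluster 6 unnamed, and the threshold of 1 admits clusters 7, 11 and 18. Without cluster 18, KPPCN 2 would not reach the 20 mesothelial-like cells that a sum needed.

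UMIs were summed per library and population and fitted with limma 3.58.1 (R 4.3.3) on log2(CPM + 5) with plain totals, precision weights, a trend (none for the gap) and Benjamini-Hochberg adjustment over all genes. Genes needed 10 UMIs at the median total and 15 UMIs in all, which 7 of 7 members met. On this scale fold changes of genes near 5 CPM are understated. The filter and weights were revised after tests on simulated data, when first results had been seen, and 0 members were called before and after. With simulated totals kept, 14 of 191, 14 of 204, 12 of 181 and 8 of 183 calls were false in mesothelial-like, fibroblast-like, epithelial-like and all cells. With totals not kept, 20 of 195, 26 of 213, 39 of 205 and 9 of 184 were. Of 100 genes changed 2-fold, 77, 90, 69 and 75 were recovered (75, 87, 66 and 75), and all 100 changed 8-fold. All genes of a population were drawn there with 1 shared between-library variance (0.032, 0.042, 0.029 and 0.070). SEs of the members in the fits were 0.20 to 0.48, 0.19 to 0.47, 0.35 to 0.94 and 0.40 to 0.78 in that order. Recovery of a 2-fold change at the spread of each member was not tested. For the gap, 21 of 183 calls were false, and 62 of 100 2-fold changes were recovered.

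Members and lists were chosen with earlier results of these data known. Genes named were the members, the 5 genes most like each (at least 10 CPM in 1 sum), and list genes with at least 10 CPM in the stroma. Genes called outside the lists (Kcne3, Muc6, Tff2) were named after their values were seen, because there were few. The gap was added after the data were seen. Fits of clusters 3 and 14 and of cluster 9 were dropped, because those clusters had been picked for their levels. An alternative without the 1166 genes listed at 0 in a whole KPPC library was added late. The promoter window was shortened from the table's 300 to 250 bases after a first look, which dropped an NF-kB match at the start of Ptx3. GENCODE's Slpi model contains the RefSeq start. Labels say that tumours of a replicate were processed in parallel, but the KPPC columns carry codes that match no replicate number, so each code was taken as 1 library of the KPPC group and no batch could be entered.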

Additional observations from a re-analysis of the deposited data

Results flagged for a closer look

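Genes of the acute-phase and protease lists that only the KPPCN table holds were outside every comparison. Each is given here because its UMIs, summed over both KPPCN libraries, exceeded the 3 counts that a count of 0 allows, and no KPPC value stands beside it. Among acute-phase proteins, Saa1 had 45 UMIs, 24 of them in fibroblast-like cells of KPPCN 1, and Saa2 had 7. Both serum amyloid genes known from liver thus had far fewer UMIs than Saa3 with its 70456 and 28258 UMIs. Read-length windows that Saa1 and Saa2 share with other genes were not counted. Hpx, the haem-binding counterpart of Hp, had 61 UMIs, Itih3 had 49, Itih4 had 45 and Orm1 had 7. The serpins Serpina3c and Serpina3f, relatives of Serpina3n, had 40 and 49 UMIs. Of the inducing ligands, Il1b had 1493 UMIs, 445 of them in the unnamed cluster 26 of KPPCN 1, whose markers are those of macrophages, and Osm had 168. Of the proteases that Slpi inhibits, Elane had 245 UMIs and Ctsg 88. Klk1 had 564 UMIs, 129 of them in acinar-like cells of KPPCN 1. The antiprotease Wfdc15b had 4 UMIs. Fpr2, a receptor for serum amyloid A, had 82 UMIs, and Cd163, the receptor for haptoglobin bound to haemoglobin, had 32.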

How the results depend on the processing

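Of 379 member values recomputed under an alternative (other pseudocount, filter, weights, scaling, thinning, clustering, or a library or the genes listed at 0 in a whole KPPC library left out), 354 kept direction and side of the threshold, 22 changed sign and 3 passed the threshold, the latter being Saa3, Slpi and Lcn2 over all cells without KPPCN 1. That fit held a single KPPCN library and many genes outside the members passed there too, so these 3 are not read as a result about the members. No member passed under any other alternative tried. The cause of these changes was not tested. The estimate for Lbp in mesothelial-like cells turned to 0.0103 with a pseudocount of 1 CPM, to 0.0181 at resolution 2 and to 1e-04 without the genes listed at 0 in a whole KPPC library, an alternative chosen after seeing the data. At resolution 0.5, Ptx3 and Hp in fibroblast-like cells turned to -0.17 and -0.15 and Lcn2 in epithelial-like cells to -0.0494. After thinning to 1000 UMIs per cell, Saa3 and Lbp in epithelial-like cells turned to -0.54 and 0.41. Leaving out 1 library in turn moved Lbp in mesothelial-like cells between -0.22 and 0.23 (up without KPPC C3 or KPPCN 1). In fibroblast-like cells Hp moved between -0.16 and 0.60 (down without KPPC C3), Serpina3n between -0.53 and 0.20 (up without KPPC H2 or KPPCN 1) and Ptx3 between -0.58 and 1.12 (down without KPPCN 2). In epithelial-like cells Saa3 moved between -1.47 and 1.83, Slpi between -0.23 and 0.96, Lcn2 between -0.66 and 0.98 and Lbp between -1.29 and 0.18. Over all cells Ptx3 moved between -0.29 and 0.80, Lbp between -1.83 and 0.0263 and Hp between -0.98 and 0.47.

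Counts of genes called, over all genes, ranged with 1 library left out from 0 to 4 in mesothelial-like, 0 to 11 in fibroblast-like, 0 to 3 in epithelial-like and 0 to 3335 in all cells (3335 without KPPCN 1). After thinning they were 3 in fibroblast-like cells, 93 in all cells and 1 for the gap. Without the genes listed at 0 in a whole KPPC library, 20 were called in all cells and 0 in the 3 named classes. With 1 KPPCN library left, it was assumed to vary like the KPPC libraries. For the gap only Saa3 was tracked, between -1.20 and -0.82 with 1 library left out and at -0.35 at resolution 0.5. No paired analysis was possible because the KPPC columns carry no replicate numbers. The 57 and 31 mesothelial-like and 59 and 29 epithelial-like cells of KPPCN limit the precision there, as does the lower depth of KPPCN 1.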
